A study of Mus musculus with 6 samples.

Results

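Transcripts of the angiotensin system and of endothelin 1 were measured in mouse soleus, a postural hindlimb muscle, that had been reloaded for 1 day. Reloading follows unloading, which all 6 samples thus shared. The genes were Agt, Ace, Agtr1a, Agtr2 and Edn1, taken as every probe that the platform annotation assigns to one of these symbols. They were represented by 5 probes, 1 for each gene, of 223 probes and 203 named genes on the array. All 6 arrays came from a single group of wild-type (so titled) C57Bl/6 mice, replicates 1 to 6. No muscle left unloaded or untouched was analysed here. RNA was extracted from cryosections, so the values cover fibres, vessels and connective tissue together, and fewer cells of a type cannot be told apart from less RNA per cell. The labels do not say that the 6 samples came from separate animals, so the spread between them may be partly technical. The labels state neither sex nor age.

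Angiotensinogen, the product of Agt, is the secreted precursor from which renin releases angiotensin I. Angiotensin-converting enzyme, the product of Ace, sits on the luminal face of endothelium, where it trims angiotensin I to the active hormone angiotensin II. The type 1 receptor, which Agtr1a encodes in rodents together with a close paralogue, mediates constriction, growth and salt retention. The type 2 receptor, encoded by Agtr2, is abundant in fetal tissues and sparse in most adult ones, and its signalling often opposes that of the type 1 receptor. Endothelin 1, made from the Edn1 precursor, is a strong vasoconstrictor peptide of endothelium that angiotensin II can induce.

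Promoter sequence is shown for Agtr2 and Ace, the genes with the largest and the smallest SD of the median-centred level among the 3 above 0 on every array. The sequences are from RefSeq on build GRCm38.p6, whose promoter table held 4 of the 5 genes, and each runs from 250 bases before the annotated gene start to 50 bases after it. The Agtr2 window is chrX:21484374-21484673 and that of the upstream Ace start is chr11:105967698-105967997, both on the plus strand. Capitals mark matches on either strand to 3 motifs. They are TATAAA (a core of the TATA box), its variant form TATATA, and GGGCGG (a core of the GC box). Matches may overlap one another.
Agtr2: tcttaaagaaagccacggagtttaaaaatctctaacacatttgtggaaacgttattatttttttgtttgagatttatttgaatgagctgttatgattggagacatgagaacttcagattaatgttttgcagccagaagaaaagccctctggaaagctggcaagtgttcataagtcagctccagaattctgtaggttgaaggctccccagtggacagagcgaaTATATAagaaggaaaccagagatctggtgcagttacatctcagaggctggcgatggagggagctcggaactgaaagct
Ace: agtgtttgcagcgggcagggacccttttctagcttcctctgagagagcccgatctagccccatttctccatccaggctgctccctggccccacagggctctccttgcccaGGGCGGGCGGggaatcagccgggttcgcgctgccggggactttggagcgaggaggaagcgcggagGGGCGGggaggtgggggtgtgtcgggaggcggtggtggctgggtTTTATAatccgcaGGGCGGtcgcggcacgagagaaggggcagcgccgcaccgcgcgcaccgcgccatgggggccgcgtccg
The Agtr2 window was 41.3% G and C and held TATATA, beginning 28 bases before the gene start. The Ace window was 69.7% G and C, and held GGGCGG at 4 places and TATAAA on the reverse strand, beginning 31 bases before the start. Over 32851 windows of this length the median was 52.7% G and C. The motif TATAAA occurred in 13.6% of them. The variant TATATA was found in 5.67%, and GGGCGG in 35.7%. These matches describe the sequence, and no measurement on these arrays bears on the use of either promoter.

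The values are deposited intensities on a linear scale from which a background had been subtracted, since each array held values below 0. The size of its most negative value is taken here as an array's noise bound, and a value at or under it has no reliable level. The bound was 0.0144 on replicate 1 and 0.0011 to 0.0028 on the others. Overall signal differed too. The intensities of an array summed to between 13.8 on replicate 6 and 165.3 on replicate 1, with a median of 36.4. Levels were therefore also expressed as log2 intensity minus the log2 median of the 175 probes above 0 on all arrays, so that 0 is the median kept probe of an array. Of 9 listed muscle fibre genes, 8 were on the array and all 8 exceeded the bound on all 6 arrays, as did 58.3% of all probes. Summed and divided by the array median, these 8 stood at 179.2 to 465.8, as muscle tissue would give. Whether it was soleus rather than another muscle was not tested.

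Of the 5 genes, Agt and Ace exceeded the noise bound on all 6 arrays, Agtr2 on 5, Agtr1a on 3 and Edn1 on 1. Over all probes, 58.3% exceeded it on every array, 28.7% on 3 arrays or fewer and 19.3% on at most 1. Agt, Ace and Agtr2 were above 0 on all arrays, as were 78.5% of all probes, while Agtr1a and Edn1 were each above 0 on 5.

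**Figure D1:**
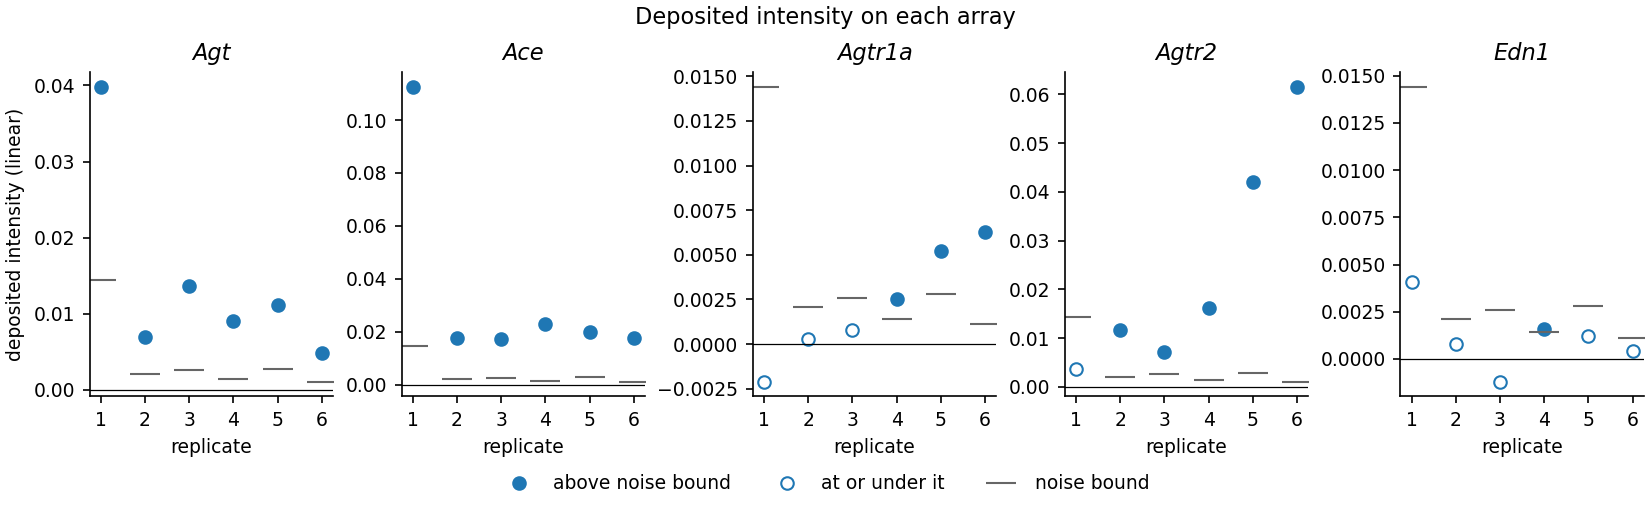
Deposited intensity (linear scale, a separate axis for each gene) of Agt, Ace, Agtr1a, Agtr2 and Edn1 on replicates 1 to 6. Filled points exceed the noise bound of their array (grey dash) and open points do not. Agt and Ace were highest on replicate 1, at 0.0398 and 0.1125, whereas both receptors were highest on replicate 6, at 0.0063 and 0.0615.

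Agt, the precursor gene, was measured on every array and kept an even level once arrays were centred. Its deposited intensity was 0.0398, 0.0069, 0.0137, 0.0090, 0.0112 and 0.0048 on replicates 1 to 6, which is 2.76 to 6.43 times the noise bound of the array. Replicate 1 stood above the rest, as it did in summed intensity. After median centring Agt was at -0.75 ± 0.35 log2 (SD, n = 6), highest on replicate 3 at -0.17 and lowest on replicate 2 at -1.12, a 1.93-fold range. Without replicate 3 the range was 1.44-fold. If noise as large as the bound is allowed in both arrays compared, the highest lowered and the lowest raised by it, 1.21-fold is left. The SD ranked 21 from the smallest among the 162 named genes above 0 on all arrays.

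Ace, the converting enzyme gene, was about as even as Agt. It had deposited intensities of 0.1125 on replicate 1, 0.0177 on replicates 2 and 6, 0.0171 on replicate 3, 0.0228 on replicate 4 and 0.0198 on replicate 5, so that 5 of the 6 arrays lay within a narrow band. Each value was 6.58 to 16.3 times the bound of its array. Median centring brought replicate 1 (0.80) beside replicate 6 (0.84), with the other arrays between 0.15 and 0.48. The mean was 0.46 ± 0.30 log2 (SD, n = 6) and the range 1.61-fold, or 1.31-fold with noise allowed in both arrays. Which of Ace and Agt varied less depended on the measure, since the SD of Agt was the smaller after quantile normalization (0.33 against 0.34) and with 75th percentile centring (0.30 against 0.35). The SD of Ace ranked 12 from the smallest of 162, and 5 of the 20 genes nearest in level had a smaller one. Over all 175 probes the median SD was 0.64. These even levels hold for arrays brought to a common median. In deposited units Ace ranged 6.58-fold and Agt 8.29-fold, and after scaling to the 28S ribosomal RNA probe 4.25-fold and 3.90-fold, each highest on replicate 1. The 28S probe was the 1 probe of 223 whose values were all whole hundredths, and it may not have been measured like the others.

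Ace and Agt were not shown to follow each other over the samples. Pearson's r of their centred levels was -0.44, with an exact two-sided permutation p of 0.382 over all 720 pairings and of 0.633 once adjusted over the 13041 pairs of named genes. By rank, rho was -0.60 (exact permutation p = 0.242). Leaving out replicates 1 and 6, the farthest from the median of Ace, gave r = -0.50. The sign depended on the scaling, since r was 0.86 in deposited units (adjusted exact permutation p = 0.149) and 0.77 after 28S scaling (adjusted exact permutation p = 0.157), scales on which both genes were highest on replicate 1. Of all pairs of named genes, 11.5% had a positive and 8.44% a negative r at an unadjusted exact p under 0.05.

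Agtr2, the type 2 receptor gene, had the widest noise-allowed range of all 223 probes after scaling to the array median. Its deposited intensity was 0.0037 on replicate 1, which is under the bound, then 0.0117 on replicate 2, 0.0071 on replicate 3, 0.0161 on replicate 4, 0.0420 on replicate 5 and 0.0615 on replicate 6. The value on replicate 6 was 55.9 times the bound of that array. The array with the least overall signal thus held the most Agtr2. Which array held the least is not resolved in deposited units, since the bound of replicate 1 exceeds the values of replicates 2 and 3. Relative to the array median that bound, 0.22, lies under the values of all 5 other arrays. In median-centred log2 units the 6 values were -4.13, -0.36, -1.12, -0.02, 1.31 and 2.64, with a mean of -0.28 and an SD of 2.31 (n = 6). With replicate 1 set to its bound, replicate 6 was at least 27.9-fold above replicate 1. Allowing noise in both arrays left 21.8-fold, a size that 0.448% of probes reached, that is Agtr2 alone. In deposited units the noise-allowed range of Agtr2 was 6.23-fold, between replicates 6 and 3, and was not the widest. It was 9.33-fold for the glucose transporter gene Slc2a4, which was not the widest either. The myosin gene Myh1 ran from 0.2584 on replicate 6 to 5.5607 on replicate 1, against bounds of 0.0011 and 0.0144. The rank of Agtr2 on that scale was not counted. After scaling to the array median, a noise-allowed fold above 2 was found for 45.3% of all probes, and for Agtr1a and Agtr2 of the 5 genes described here.

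The wide range of Agtr2 did not rest on a single array, although its size did. Without replicate 6 it was 11.2-fold, without replicate 1 13.5-fold, and without both 5.39-fold between replicates 5 and 3. Its SD was the second largest of 162 genes, and the 20 genes nearest in level had a median SD of 0.57 and a highest of 2.09. That SD of 2.31 takes replicate 1 at its value under the bound. It was 1.49 without replicate 1, 1.49 with values floored at 2 times the bound, and 1.62 with the bound added before log2. In deposited units, where 84.6% of the 162 genes were highest on replicate 1, Agtr2 was 1 of 6 genes (3.70%) highest on replicate 6. The share highest on that array was 7.41% after 28S scaling, 21.0% after median centring and 24.1% after quantile normalization. Being highest on replicate 6 and lowest on replicate 1 was common on the median-centred scale, where 22 genes (13.6%) had both extremes. These counts were looked at after the values had been seen.

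**Figure D2:**
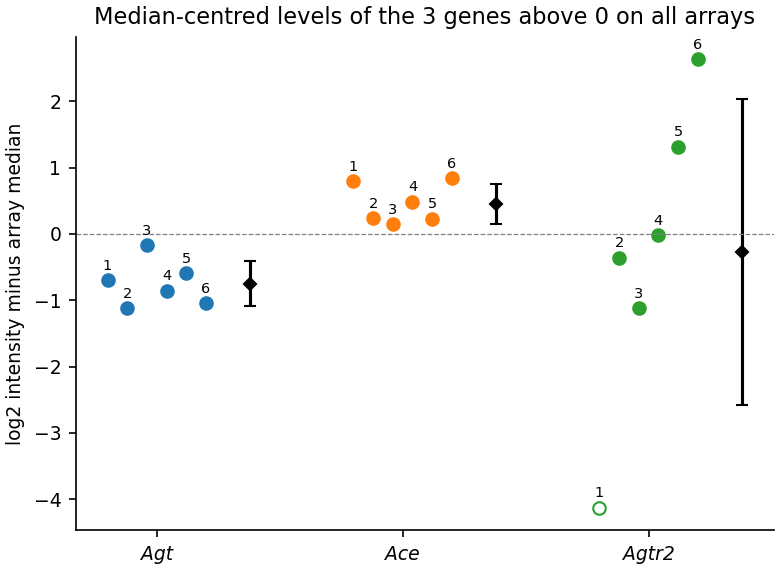
Log2 intensity minus the array median for Agt, Ace and Agtr2, with each point labelled by its replicate number and the open point under the noise bound. Diamonds and bars give the mean and SD of 6 arrays. Agt (SD 0.35) and Ace (SD 0.30) form tight groups, whereas Agtr2 (SD 2.31) extends from -4.13 on replicate 1 to 2.64 on replicate 6.

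**Figure D3:**
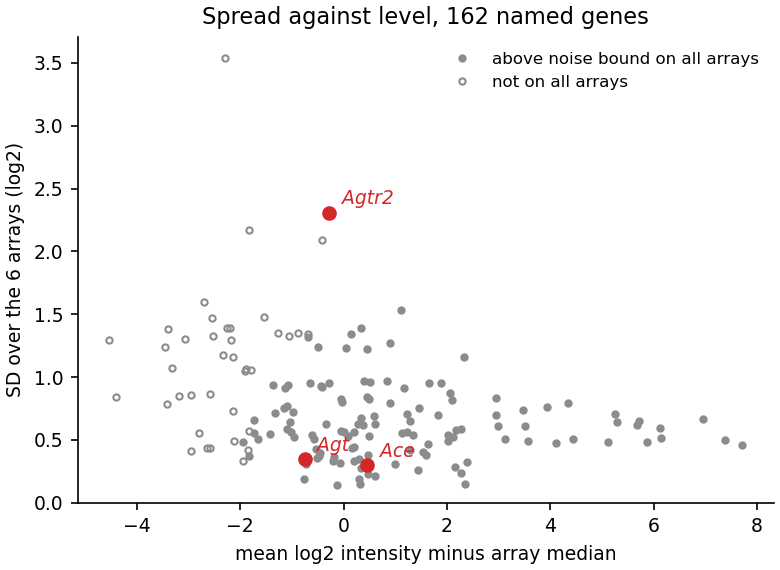
SD over the 6 arrays against mean median-centred log2 level for the 162 named genes above 0 on all arrays, with open points for genes not above the noise bound on every array. Agtr2, with replicate 1 at its value under the bound, lies above all 20 genes nearest to it in level, while Ace and Agt lie under the median SD of 0.64.

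The centred level of Agtr2 had a negative correlation with the summed intensity of the array, which did not pass adjustment over all genes. Pearson's r with log2 summed intensity was -0.96 (exact two-sided permutation p = 0.00278). The rank correlation, Spearman's rho, was -0.94 (exact permutation p = 0.0167). Adjusted over the 162 named genes by Benjamini and Hochberg, the exact permutation p for r was 0.056, which did not pass 0.05. Under 10 other settings that adjusted p was 0.030 to 0.320, with 4 under 0.05, and with 1 array left out it was 0.117 to 0.270. The lowest, 0.030, was in deposited units. How many genes passed there was not counted, so that pass says little about Agtr2 alone. The r was -0.80 without replicates 1 and 6, the arrays of extreme sum. Such relations were common on these arrays. At an unadjusted exact p under 0.05, 14.8% of the 162 genes had a negative r with the summed intensity and 19.1% a positive one, and 0 passed adjustment. Ace (r = 0.09, exact permutation p = 0.896) and Agt (r = 0.30, exact permutation p = 0.546) showed no such relation that passed a test. For Ace the sign rested on replicate 1, since r was -0.93 without it (adjusted exact permutation p = 0.193).

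Muscle fibre genes stood in the opposite order on the extreme arrays. Summed over the 8 measured markers and divided by the array median, they were lowest on replicate 6 at 179.2 and highest on replicate 1 at 465.8. All 8 had a negative r with Agtr2 over the 6 arrays, from -0.96 for Myh2, the type IIa myosin, to -0.63 for Myog, the myogenic factor of differentiation. Of all other named genes 101 of 161 had a negative r with Agtr2. The part of fibre content or of overall signal in the Agtr2 values was not tested. Of the other marker lists, endothelium had 6 of 9 markers measured, with a summed level of 7.28 on replicate 1 to 14.3 on replicate 5. Smooth muscle and pericytes had 1 of 7 (Pdgfrb), fibroblasts 1 of 6 (Pdgfra) and adipocytes 3 of 7, with summed levels of 1.10 to 1.46, 0.24 to 0.61 and 7.45 to 12.8. The leukocyte list was represented by Il1b, which was not above 0 on any array, and the nerve list by 0 of 5 genes.

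Agtr1a, the type 1 receptor gene, was near the noise bound and exceeded it on the 3 arrays where Agtr2 was highest. Its deposited intensity was -0.0021, 0.0003 and 0.0008 on replicates 1 to 3, all under the bound. It reached 0.0025 on replicate 4, 0.0052 on replicate 5 and 0.0063 on replicate 6, which is 1.79, 1.86 and 5.73 times the bound. Relative to the array median these 3 arrays stood at 0.15, 0.31 and 0.64. Replicate 6 was at least 4.55-fold above replicate 2, the array with the lowest value or bound, and 3.28-fold with noise allowed in both. Without replicate 6 the range was 2.20-fold. Whether the type 1 receptor transcript was absent from replicates 1 to 3 cannot be read from values under the bound.

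Both angiotensin receptor genes were highest on replicate 6 and next highest on replicate 5. With linear intensities divided by the array median, which keeps values below 0, Agtr2 stood at 0.057, 0.78, 0.46, 0.99, 2.49 and 6.21 on replicates 1 to 6, and Agtr1a at -0.032, 0.020, 0.052, 0.15, 0.31 and 0.64. Their Pearson's r was 0.98 (exact two-sided permutation p = 0.00278). By rank, rho was 0.94 (exact permutation p = 0.0167), although the order of Agtr1a among replicates 1 to 3 lies within the noise. Adjusted over all 20503 pairs of named genes, the exact permutation p for r was 0.166, so the relation did not pass 0.05. On this scale it was the 1 of 10 pairs among the 5 genes with an unadjusted p under 0.05, where 8.66% of all pairs had a positive r at that threshold and 6.75% a negative one. Without replicates 5 and 6 r was 0.83, over 4 arrays of which 3 had Agtr1a under the bound. The deposited units gave r = 0.94 (adjusted exact permutation p = 0.058), and 28S scaling gave r = 0.96 (adjusted exact permutation p = 0.051). In deposited units 84.6% of the 162 genes were highest on replicate 1, and after 28S scaling 66.0%. For the receptors an exact permutation p of 0.00278 adjusted to 0.166 on the median scale and to 0.058 in deposited units. After 28S scaling an exact permutation p of 0.00556 adjusted to 0.051. These smaller adjusted p go with more pairs of small p, and do not show a closer relation. The share of all pairs at an unadjusted p under 0.05 was not counted in deposited units or after 28S scaling. On each of those scales 2 of the 10 pairs had an unadjusted p under 0.05. The other one was Ace with Edn1 in deposited units (r = 0.85, exact permutation p = 0.00278, adjusted p = 0.058), although Edn1 was at noise level, and Agt with Ace after 28S scaling (r = 0.88, exact permutation p = 0.0306, adjusted p = 0.121). With the bound added to all values before log2, r of the receptors was 0.91 (adjusted exact permutation p = 0.207) and rho 0.83 (exact permutation p = 0.0583), and r without replicates 5 and 6 was 0.39. In that setting the relation rests on replicates 5 and 6. These settings share the same 6 arrays. The linear r with log2 summed intensity was -0.80 for Agtr1a (exact permutation p = 0.0917, adjusted p = 0.248) and -0.78 for Agtr2 (exact permutation p = 0.138, adjusted p = 0.320). Neither passed, and the part of overall signal in the relation of the receptors was not tested.

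**Figure D4:**
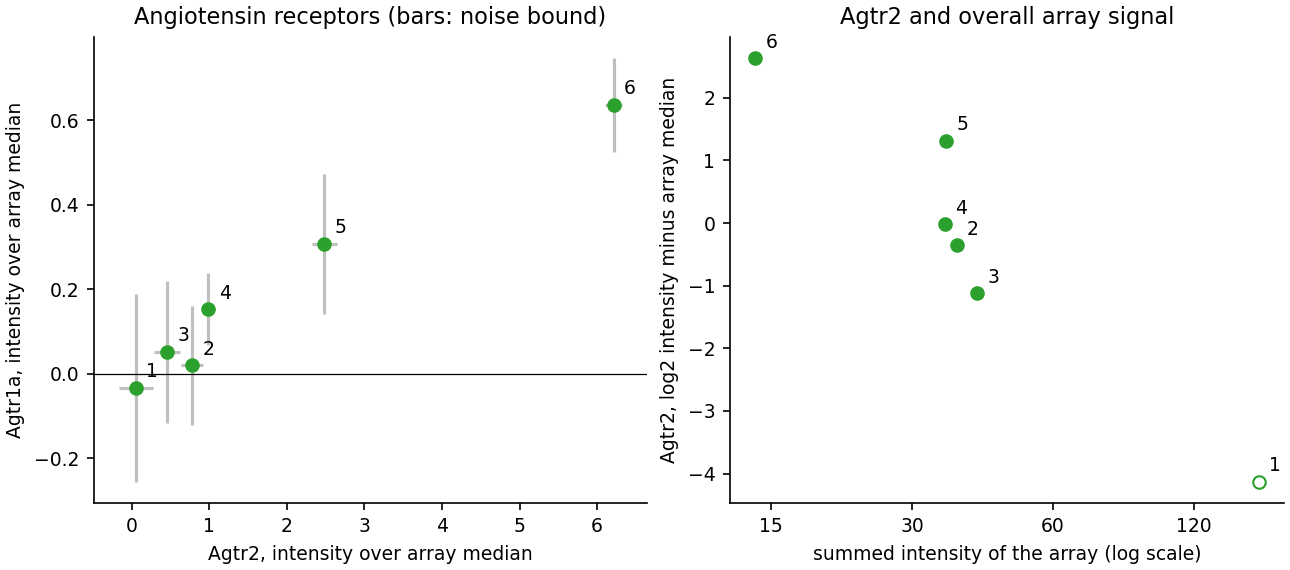
Left, Agtr1a against Agtr2 as intensity over the array median, with replicate numbers and with the noise bound of each array as bars. Right, median-centred log2 Agtr2 against the summed intensity of the array (log axis), with the open point under the bound. Replicate 6 had the most of both receptors and the lowest summed intensity, 13.8. Replicate 1, with the highest, 165.3, had both receptors under its bound.

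Edn1, the endothelin 1 precursor gene, stayed at the noise level. Deposited intensities were 0.0041, 0.0008, -0.0012, 0.0016, 0.0012 and 0.0004 on replicates 1 to 6, and replicate 4 alone exceeded its bound, by 1.14 times. No fold between arrays is given for it. Of the 6 endothelial markers measured, 5 exceeded the bound on all 6 arrays, whereas the nitric oxide synthase gene Nos3 exceeded it on 2. Among the 5 were Pecam1, an adhesion molecule of endothelial junctions, and Cdh5, the cadherin of those junctions. Their deposited intensities were 0.0451 to 0.187 and 0.0234 to 0.157. Values at noise level do not show that endothelin transcript was absent from the vessels of this muscle. Among the 9 remaining pairs of the 5 genes on the linear median-scaled values, those with Edn1 had r from -0.76 with Agt to 0.35 with Ace, and 0 of the 9 had an unadjusted exact permutation p under 0.05 in this design of 6 arrays.

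Few other genes of the renin-angiotensin, endothelin and nitric oxide systems were on the array. Of 35 listed, 4 had probes, and 0 of these exceeded the noise bound on all arrays. Edn2, which encodes endothelin 2, was at or below 0 on all 6 arrays. Edn3, which encodes endothelin 3, exceeded the bound on 3 arrays, with 0.0149 on replicate 1 against a bound of 0.0144. Nos3, the endothelial nitric oxide synthase, exceeded it on 2. Nos2, the inducible nitric oxide synthase, had -0.0012, 0.0011 and 0.0015 on replicates 1 to 3 and 0.0058, 0.0190 and 0.0080 on replicates 4 to 6. Nos2 therefore exceeded the bound on 3 arrays, the ones on which Agtr1a did. How many other probes exceeded it on those arrays alone was not counted. Its noise-allowed range after scaling to the array median was 4.49-fold, where 45.3% of all probes had a fold above 2.

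Among genes that textbooks list as raised by angiotensin II or endothelin 1, Jun and Tgfb1 were even, whereas Fn1 and Timp1 varied more. Of 14 listed besides Edn1, 5 were on the array and 4 exceeded the bound on all arrays, with a median SD of 0.34 log2 against 0.64 over all 175 probes. The AP-1 subunit Jun was at 2.35 ± 0.15 and the growth factor Tgfb1 at 0.47 ± 0.23 (SD, n = 6). After median centring the matrix protein Fn1 (SD 0.59) ranged 3.30-fold and the protease inhibitor Timp1 (SD 0.44) 2.27-fold, both highest on replicate 3 and lowest on replicate 6. Il6, an interleukin of inflammation and exercise, did not exceed the bound on any array. All 4 measured above the bound had a negative r with Agtr2, from -0.51 for Jun to -0.06 for Tgfb1, as did 101 of all 161 other named genes. With Agt, r was 0.81 for Fn1, 0.72 for Timp1, 0.54 for Tgfb1 and -0.55 for Jun. Of all 161 other named genes, 100 had a positive r with Agt. After median centring Agt, Fn1 and Timp1 were highest on replicate 3, whereas in deposited units they were highest on replicate 1.

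Vessel growth genes included several with a high r with Agtr2, and 1, Kdr, with an SD under that of Ace. Of 16 listed, 12 had probes and 10 were above 0 on all arrays, with a median SD of 0.77. Of these 10, 6 had a positive and 4 a negative r with Agtr2, against 60 and 101 of all 161 other named genes. The positive ones included the angiogenin gene Ang (r = 0.99), the VEGF receptor gene Flt1 (0.97), the ephrin gene Efnb2 (0.96) and the lymphatic VEGF receptor gene Flt4 (0.94), which exceeded the bound on 4 arrays. After median centring these genes were all lowest on replicate 1, where Flt4 was under the bound. In deposited units Flt1 and Efnb2 were instead highest on replicate 1. Kdr, the main VEGF receptor gene of endothelium, was at 0.30 ± 0.19 log2 (SD, n = 6), with r = 0.54 with Ace and 0.05 with Agtr2. The ligand genes Vegfa and Vegfb had r = -0.30 and -0.80 with Agtr2. These values are across 6 arrays that differ in overall signal and are given as a description.

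The genes whose centred levels were most like each member over the 6 arrays, of 161 compared, also describe these arrays only. For Agtr2 they were Ang (r = 0.991), the growth factor gene Egf (0.989) and Csf2rb2, a cytokine receptor chain (0.979). For Agt they were the glycolytic enzyme gene Eno2 (0.963), the insulin-responsive glucose transporter gene Slc2a4 (0.900) and the glycolytic enzyme gene Pgk1 (0.865). Ace had looser matches, namely Ppara, a nuclear receptor of fatty acid use (0.821), Jun (0.703) and Plat, the tissue plasminogen activator gene (0.576). Plat exceeded the noise bound on 1 of 6 arrays, so its r rests mostly on values with no reliable level. After quantile normalization Agtr2 kept all 3 of its genes, and Agt and Ace kept 2 each. Ang stayed among the 3 nearest to Agtr2 in deposited units (r = 0.925) and after 28S scaling (0.973). Egf was not among the 3 on either scale, and Csf2rb2 was among them after 28S scaling but not in deposited units. The deposited intensity of Ang was 0.0241, 0.0391, 0.0185, 0.0393, 0.0806 and 0.0745 on replicates 1 to 6. Replicates 5 and 6 were thus high for both Ang and Agtr2.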

How the data were processed

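Soleus RNA of the 6 samples, 3 micrograms each per the labels, was measured on arrays of 223 probes. The authors deposited 1 intensity per probe and array; how background was removed, how arrays were normalized and which scanner was used is not given in the sources used here. Probes were named from the platform annotation, 205 with 1 gene and 18 with no gene or several. All 5 genes matched the RefSeq table of GRCm38.p6. No genome build ties the probes to positions.

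Computed here, with Python 3.11.15, numpy 2.4.6 and scipy 1.17.1, were log2 levels centred on each array's median over the 175 probes above 0 on all arrays, noise bounds, SDs and fold ranges. A value at or under the bound was set to it for the range, and the higher array had to exceed its own bound. Correlations over arrays had exact two-sided permutation tests, adjusted by Benjamini and Hochberg over all named genes or all their pairs, never over the 5 genes alone. The smallest exact p that 6 arrays can give is 0.00139. Of genes with several probes, the brighter one was used. The correlation step was tested on simulated data. Named were the 5 genes, the 3 genes of highest r with each member above 0 on all arrays, and the measured genes of the pathway, vessel growth, target and marker lists; any other gene was chosen after its values were seen. The genes and lists were chosen with earlier results of these data known. With 6 arrays, every mean is of limited precision. Alternatives were other scalings, other treatments of dim values and leaving out arrays.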

Additional observations from a re-analysis of the deposited data

Results flagged for a closer look

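In 12 sets of 6 values, the gap between the extreme sample and its neighbour was divided by the whole range, and 5 sets exceeded Dixon's critical value for 6 samples. Chance flags about 1 in 20 sets of normal values. Replicate 1 was the high sample in 4 of them, with 0.940 for the deposited intensity of Ace, 0.746 for that of Agt, 0.819 for the summed intensity and 0.872 for the noise bound. After median centring the gaps of Ace and Agt were 0.113 and 0.446. Edn1 over the array median was low on replicate 3, at 0.672, where its intensity was below 0 and within the noise bound. The gaps of Agtr2 were 0.337 in deposited units and 0.445 after centring.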

How the results depend on the processing

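No paired analysis was possible because all 6 arrays belong to 1 group. In deposited units the fold ranges of Ace and Agt were 6.58 and 8.29, and after 28S scaling 4.25 and 3.90, while those of Agtr2 were 8.66 and 10.4, all highest on the same array as before or on replicate 1. The r of Ace with Agt turned to 0.86 in deposited units and 0.77 after 28S scaling. The r of Agt with summed intensity was 0.954 in deposited units (adjusted exact permutation p = 0.034). A positive r is close to fixed there, since uncentred values are set against their own sum. On that scale 84.6% of the 162 genes were highest on replicate 1, the array of highest sum. How many genes passed adjustment in deposited units was not counted, so a pass there says little about a single gene. The r of Agtr2 with summed intensity passed 0.05 after adjustment in deposited units (-0.86), after quantile normalization (-0.952), with centring on probes above the bound (-0.956), and against the sum without 28S (-0.959, chosen after seeing the data); the range of its adjusted exact permutation p over these was 0.030 to 0.045. The r of Ace with summed intensity was -0.18 with 75th percentile centring. The cause of these changes was not tested. Leaving out each replicate in turn gave r from -0.93 to 0.85 for Ace with summed intensity, and fold ranges of 1.44 to 1.93 for Agt, 2.20 to 4.55 for Agtr1a and 11.2 to 27.9 for Agtr2. Chosen after seeing the data, leaving out replicates 1 and 6 together gave fold ranges of 1.26 for Ace, 5.39 for Agtr2 and 2.20 for Agtr1a, and allowing noise in both arrays gave 1.21 for Agt. The number of pairs past the threshold was 0 of 1 in each planned setting. Agtr1a could not be quantile normalized, since it is not above 0 on all arrays. The noise bound comes from 1 probe on each array, and signal over it limits Agtr1a and Edn1 throughout.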
